A study of Mus musculus with 8 samples.

Results

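*Il10*, *Il6* and *Il6ra* were read by quantitative PCR in whole mouse spleen after 7 days of R848 or PBS. They are 3 of the 84 Toll-like receptor (TLR) pathway genes on the plate, which also carried 5 housekeeping genes. They were chosen by name, as a regulatory cytokine, a pleiotropic cytokine and a receptor chain of the latter, with earlier results of these data known. R848 (resiquimod) is a small-molecule agonist of TLR7, dosed here at 1 mg per kg each day. The study held 8 samples in 6 groups: C57BL/6 wild-type mice, TLR7-/- mice and IFNAR-/- mice, each with PBS (Mock in the pictures) and with R848. Each sample was RNA pooled from 3 mice. Wild type had 2 experiments per treatment, of which the values used here are the mean, and each deficient strain had 1 pool per treatment. The ages of the mice and the parts of the genes deleted are not given in the sources used here, and the background of the deficient strains is not given either. In TLR7-labelled spleen *Tlr7* itself read 9.20 cycles after PBS and 9.33 after R848, beside 12.00 and 9.47 in wild type and 10.43 and 8.23 in IFNAR-labelled spleen, where fewer cycles relative to reference genes is a higher level. Whether that assay lies in the deleted stretch is not given, and the plate held no interferon receptor gene, so neither deficiency was checked by these readings.

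Interleukin 10, the product of *Il10*, is released by macrophages, dendritic cells, B cells and T cells and restrains the production of inflammatory cytokines through the transcription factor STAT3. Interleukin 6, the product of *Il6*, is an inflammatory cytokine that TLR ligands induce through MyD88, NF-kB and C/EBP beta, and it acts on B-cell maturation, T-cell differentiation and the acute-phase response. *Il6ra* encodes the chain that binds interleukin 6 and hands it to the signalling chain gp130. TLR7 is an endosomal receptor for single-stranded RNA that signals through MyD88, and IFNAR is the receptor for interferon alpha and beta.

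Promoter sequence from RefSeq (build GRCm38.p6) was matched for 2 of the 3 members, *Il6* and *Il6ra*. The 250 bases upstream of each annotated start are shown. *Il10* had no entry among the promoters used here. Capitals mark matches to short patterns for NF-kB and AP-1 (TGANTCA), and a pattern for the interferon-stimulated response element (ISRE) was searched as well. Both strands were searched, and the matches do not overlap. The *Il6* stretch is chr5:30012864-30013113 on the plus strand and the *Il6ra* stretch is chr3:89913197-89913446 on the minus strand, both written 5′ to 3′.
Il6: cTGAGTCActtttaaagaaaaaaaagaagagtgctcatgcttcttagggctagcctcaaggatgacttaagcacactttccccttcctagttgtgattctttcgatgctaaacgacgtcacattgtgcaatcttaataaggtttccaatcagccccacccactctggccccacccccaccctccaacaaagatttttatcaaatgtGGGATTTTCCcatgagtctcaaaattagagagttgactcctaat
Il6ra: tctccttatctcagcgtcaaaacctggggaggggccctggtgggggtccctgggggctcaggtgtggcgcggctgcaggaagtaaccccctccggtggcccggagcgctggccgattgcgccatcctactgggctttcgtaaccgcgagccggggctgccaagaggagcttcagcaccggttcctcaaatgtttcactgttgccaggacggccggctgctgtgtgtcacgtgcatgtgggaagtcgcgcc

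The *Il6* stretch held the NF-kB letters as GGGATTTTCC, 44 to 35 bases before the start, and the AP-1 letters as TGAGTCA, 249 to 243 bases before it. The *Il6ra* stretch held neither, and the ISRE letters were in neither stretch. Among 32851 mouse promoters of the same length, 1.41% held the NF-kB letters, 6.75% the AP-1 letters and 2.98% the ISRE letters. The 2 stretches also differed in base composition, with a G and C content of 42.8% upstream of *Il6* and 65.2% upstream of *Il6ra*. A match of letters is a description of the sequence and was not set against binding data.

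Every level below is a delta-Ct, the cycle at which a transcript was detected (Ct) minus the mean Ct of *Hprt1*, *Hsp90ab1* and *Gapdh*. A lower delta-Ct is a higher level, and 1 cycle is a 2-fold difference if each cycle doubles the product. No value has a replicate error, so nothing was tested, and a level called higher or lower is so in these pools alone. Readings above Ct 35 had been set to 35, which gives a column a highest possible delta-Ct (the cap) and makes a gene at the cap an upper limit on its level. For wild type after PBS the cap was 13.15. For the TLR7-labelled columns it was 15.10 after PBS and 15.63 after R848, and for the IFNAR-labelled columns 12.43 and 14.93. In wild-type R848 the highest value was 16.67, carried by 1 gene. From the caps, the reference genes had a mean Ct of 21.85 in wild-type PBS, at most 18.33 in wild-type R848, 19.90 and 19.37 in the TLR7-labelled pair and 22.57 and 20.07 in the IFNAR-labelled pair. Tables of different strains were normalised separately to the same genes, which applies to every level set across strains. In whole spleen, fewer cells of a type and less transcript per cell cannot be told apart. Among genes listed here as B-cell markers, *Ly86* and *Cd86* were read in every column, at 2.45 to 3.93 and 3.20 to 5.72. *Btk*, on the same list, was at the cap in all 4 columns of the deficient strains. How far these genes are particular to B cells was not tested. *Btk* lies in the first 4 wells of the plate, which hold *Btk*, *Casp8*, *Ccl2* and *Cd14*. The members lie elsewhere, *Il10* in well B12, *Il6* in C06 and *Il6ra* in C07.

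The columns split into a low and a high set for *Il10*. In wild type after PBS it read 11.00 cycles, and in IFNAR-labelled spleen after PBS it was at the cap of 12.43. It was 6.77 in wild-type R848, 6.40 in TLR7-labelled PBS, 6.63 in TLR7-labelled R848 and 4.83 in IFNAR-labelled R848. The 3 middle columns lay within 0.37 cycles of each other, so TLR7-labelled spleen after PBS read close to wild-type spleen after R848. The step from these to wild-type PBS was 4.23 cycles, and the range over the 6 columns was at least 7.60 cycles. That was the 5th largest range of the 84 genes, whose median range was 2.65 cycles. Among the larger ranges were those of *Btk*, *Ccl2* and *Cd14* of the first 4 wells, each with readings at the cap.

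The columns of *Il6* ordered differently. Wild type read 12.50 cycles after PBS and 13.62 after R848. TLR7-labelled spleen read 9.50 after PBS and 9.23 after R848. IFNAR-labelled spleen was at the cap of 12.43 after PBS and read 8.63 after R848. Both wild-type columns were therefore low, both TLR7-labelled columns were high, and the IFNAR-labelled pair ran from the cap to the highest level of the 6. The order of wild-type PBS and IFNAR-labelled PBS is unknown, because the second is only a limit. The range was at least 4.99 cycles, the 8th largest of the 84 genes.

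*Il6ra* varied least. Wild type read 4.15 cycles after PBS and 4.72 after R848. TLR7-labelled spleen read 4.50 and 4.63, and IFNAR-labelled spleen 6.43 and 5.93. The wild-type and TLR7-labelled columns lay within 0.57 cycles of each other, and the IFNAR-labelled columns were the 2 lowest, at least 1.21 cycles below the rest. The range of 2.28 cycles ranked 54th among the 84 genes. *Il6ra* was never near the cap, with at least 6.00 cycles to spare in every column.

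**Figure D1:**
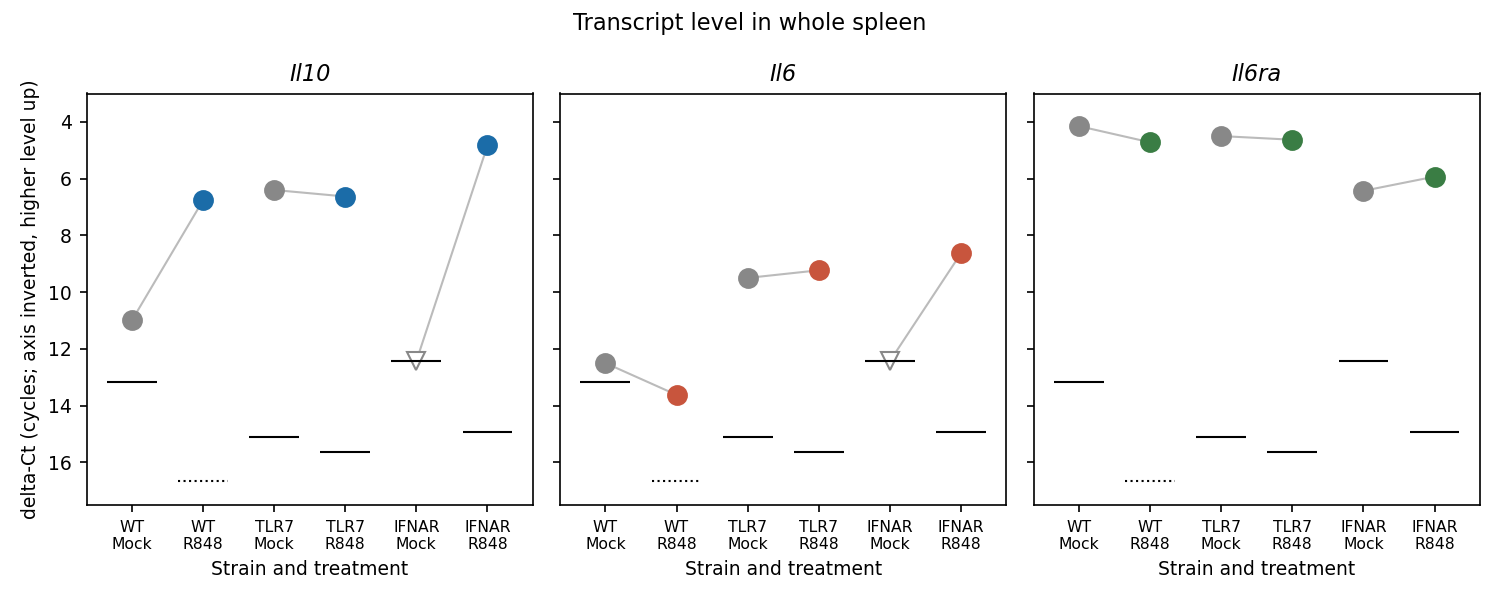
Delta-Ct (cycles, axis inverted so that a higher level is higher up) of each member in the 6 columns; grey is Mock (PBS), colour is R848, and lines join the columns of a strain. Black bars are the caps (dotted: highest value seen in wild-type R848) and open triangles are readings at the cap. *Il10* and *Il6* sit at the cap of 12.43 in IFNAR-labelled PBS, while *Il6ra* stays between 4.15 and 6.43.

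The response to R848 was taken as the log2 level in R848 over PBS within a strain, with 2-fold as the line for counting a gene as higher or lower. In wild type *Il10* was 18.8-fold higher (log2 4.23), *Il6* was 2.17-fold lower (log2 -1.12, or -0.60 with *Hsp90ab1* alone as reference) and *Il6ra* was 1.48-fold lower (log2 -0.57, or -1.07 with 5 housekeeping genes). The 2-fold line was thus passed by 1 member upward and 1 downward, on a plate where 38.1% of the genes passed 2-fold upward and 13.1% downward. Only 2 of the 84 genes had a larger log2 value than *Il10*. *Il6* and *Il6ra* lay below the lower quartile of the plate, which was -0.48 around a median of 0.41.

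The wild-type *Il6* value rests close to the detection limit. Its Ct after PBS was 34.35, only 0.65 cycles from the cap, and in R848 it was at most 31.95. The transcript thus came up earlier with R848, but the reference genes came up earlier still, by at least 3.52 cycles, and the lower normalised level is the difference of those shifts. If 1 of the 2 PBS experiments had been capped, the other would have read 33.70 and the direction would be open. The same case for *Il10*, whose PBS Ct was 32.85, would need the experiments to differ by 4.30 cycles and would make the 18.8-fold a lower bound. Values of the separate experiments were not used here.

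In the TLR7-labelled pair no member reached 2-fold, on a plate where 4.76% of genes passed 2-fold upward and 3.57% downward. *Il10* had a log2 value of -0.23, *Il6* of 0.27 and *Il6ra* of -0.13, the last reaching 0.00 with *Hsp90ab1* alone as reference. The quartiles of the plate were -0.23 and 0.37, and the 3 members lay at or between them. Here the readings were far from the cap, with Ct values of 26.30 and 26.00 for *Il10* and 29.40 and 28.60 for *Il6* after PBS and R848.

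Both cytokines were at the cap after PBS and well below it after R848 in IFNAR-labelled spleen. *Il10* was at least 194-fold higher with R848 (log2 at least 7.60), and no other gene had a larger value or bound. *Il6* was at least 13.9-fold higher (log2 at least 3.8), a bound that 6 genes exceeded. *Il6ra* had a log2 value of 0.50, below the plate's median of 1.25, and it turned to -0.12 with 5 housekeeping genes as reference. Of the plate, 53.6% of genes passed 2-fold upward and 2.38% downward, so the 2 members called stand among a majority. The Ct of *Il10* was 24.90 with R848 against the limit of 35.00 after PBS, and that of *Il6* was 28.70 against the same limit. The reference genes came up 2.50 cycles later after PBS than in R848.

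**Figure D2:**
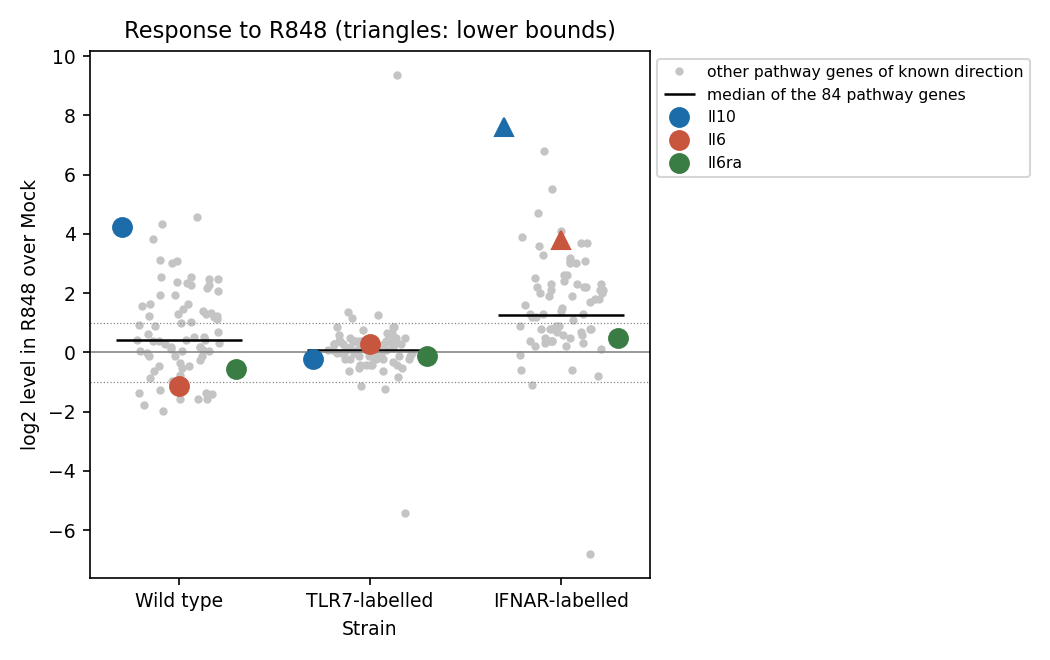
Log2 level in R848 over PBS (vertical axis) for the 3 members and the other pathway genes of known direction (grey, some of them lower bounds) in each strain; bars are the median of the 84 genes, dotted lines 2-fold, and triangles lower bounds. The medians include genes of open direction, which are not drawn. *Il10* stands at 4.23, -0.23 and at least 7.60 from left to right, and *Il6ra* lies between -0.57 and 0.50, the latter turning to -0.12 with 5 housekeeping genes.

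The members were next compared within a column, since the ratio of 2 genes in 1 column needs no reference gene. Levels of different genes cannot be ranked this way, because amplification may differ between assays, but the change of a ratio with R848 can be read. The log2 ratio of *Il10* to *Il6* was 1.5 in wild type after PBS and 6.85 after R848. With R848 the ratio was therefore 40.8-fold higher in wild type. This and the wild-type ratio changes below are exact only if neither cytokine was capped in a wild-type experiment, and *Il6* lay 0.65 cycles from the cap after PBS. In TLR7-labelled spleen the log2 ratio was 3.10 after PBS and 2.6 in R848, a change of -0.50. IFNAR-labelled R848 had a ratio of 3.8, between the others, and in IFNAR-labelled PBS both genes were at the cap, so no ratio and no change are known.

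Against *Il6ra*, *Il10* differed with R848 in wild type and in IFNAR-labelled spleen. The log2 ratio of *Il10* to *Il6ra* was -6.85 after PBS and -2.05 after R848 in wild type. TLR7-labelled spleen had -1.90 and -2.0, and IFNAR-labelled spleen at most -6.00 and then 1.10. The changes were 27.9-fold, 0.933-fold and at least 137-fold. Wild-type R848 and both TLR7-labelled columns thus lay close together, between -2.05 and -1.90.

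The ratio of *Il6* to its receptor chain differed by over 2-fold with R848 in IFNAR-labelled spleen and by less in the other strains. Its log2 value was -8.35 after PBS and -8.90 after R848 in wild type, a change of -0.55. It was -5.00 and -4.60 in the TLR7-labelled columns, a change of 0.40. IFNAR-labelled spleen had at most -6.00 after PBS and -2.70 after R848, a change of at least 3.30. In R848 columns the ligand was thus highest relative to the receptor chain in IFNAR-labelled spleen and lowest in wild type.

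**Figure D3:**
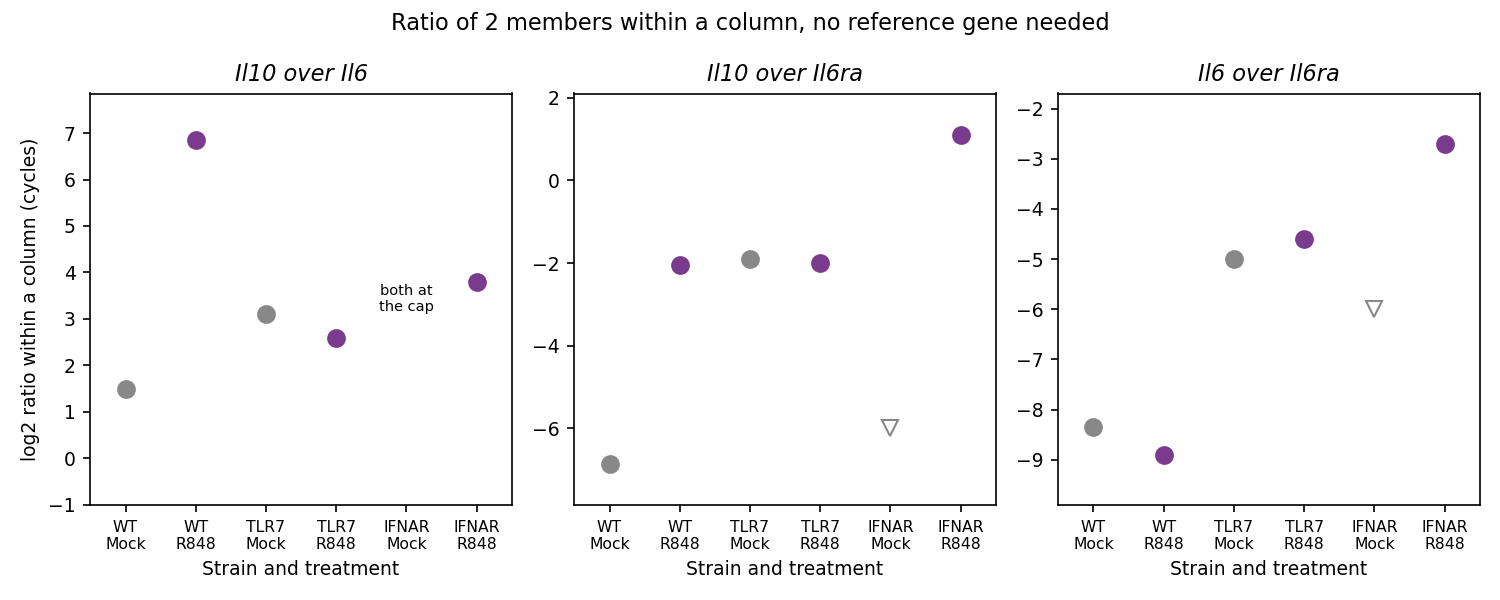
Log2 ratio of 2 members within each column (vertical axes, in cycles, with a scale of their own per panel); grey is Mock (PBS), purple is R848, and open triangles are upper limits. *Il10* over *Il6* goes from 1.5 to 6.85 in wild type and from 3.10 to 2.6 in TLR7-labelled spleen.

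Setting the strains side by side shows which column carries each difference of response. For *Il10* the TLR7-labelled response was lower than the wild-type response by a log2 value of -4.46. Of this, -4.60 came from the PBS columns and 0.14 from the R848 columns. After PBS, *Il10* was 24.3-fold higher in TLR7-labelled than in wild-type spleen, and 1 of the 84 genes had a larger value. That fold is a lower bound if *Il10* was capped in 1 wild-type PBS experiment. In R848 the same comparison gave 1.10-fold. Of the plate, 48.8% of genes were at least 2-fold higher in TLR7-labelled than in wild-type PBS and 4.76% at least 2-fold lower.

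For *Il6* both columns differed between these strains. The gene was 8-fold higher in TLR7-labelled than in wild-type PBS and 21-fold higher in R848, the largest R848 value on a plate where 29.8% of genes passed 2-fold upward and 14.3% downward. Each fold is a lower bound if *Il6* was capped in 1 wild-type experiment of that treatment. The difference of responses was 1.39, which is exact only if it was capped in none. *Il6ra* had log2 values of -0.35 after PBS and 0.09 in R848, and a difference of responses of 0.44.

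Between IFNAR-labelled and wild-type spleen, no member was at the highest value of its column in R848. Whether *Il6* was capped in 1 of the 2 wild-type R848 experiments cannot be read from their mean, and its fold would then be a lower bound. *Il10* was 3.84-fold higher and *Il6* 31.8-fold higher in IFNAR-labelled R848, the latter the largest of the 84 values, and *Il6ra* was 2.31-fold lower. On the plate 29.8% of genes passed 2-fold upward and 15.5% downward. After PBS, *Il10* was at least 2.69-fold lower and *Il6ra* 4.86-fold lower in IFNAR-labelled spleen, with 4.76% of genes at least 2-fold higher and 31% at least 2-fold lower, while the order of *Il6* was open. The responses differed by at least 3.37 for *Il10*, at least 4.92 for *Il6* and 1.07 for *Il6ra*, against 0.77 for the median gene. If 1 wild-type PBS experiment was capped, the order of *Il10* after PBS is open, and so are the differences from the wild-type response for both cytokines.

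The deficient strains can also be set against each other, away from the wild-type means. After PBS, *Il10* was at least 65.3-fold lower, *Il6* at least 7.62-fold lower and *Il6ra* 3.81-fold lower in IFNAR-labelled than in TLR7-labelled spleen, where 60.7% of the plate was at least 2-fold lower and 1.19% at least 2-fold higher. In R848, where reference Ct values were 20.07 and 19.37, *Il10* was 3.48-fold higher in IFNAR-labelled spleen, a value that 2 of the 84 genes exceeded, and *Il6* was 1.52-fold higher. *Il6ra* was 2.46-fold lower, with 4 of the 84 genes below it. In these R848 columns 8.33% of the plate passed 2-fold upward and 10.7% downward.

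The responses were also computed with other reference genes and with another control column. With each reference gene alone, all 5 housekeeping genes or the median pathway gene, *Il10* in wild type stayed between 3.00 and 4.75 and *Il6* between -2.35 and -0.60. When TLR7-labelled PBS served as the control for wild-type R848, *Il10* turned to -0.37, *Il6* went to -4.12 and *Il6ra* to -0.22. With the same column as control for IFNAR-labelled R848, *Il10* was 1.57, *Il6* 0.87 and *Il6ra* -1.43. The 3 PBS columns differ in reference Ct as well, at 21.85, 19.90 and 22.57, and the part of that in the levels was not tested.

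**Figure D4:**
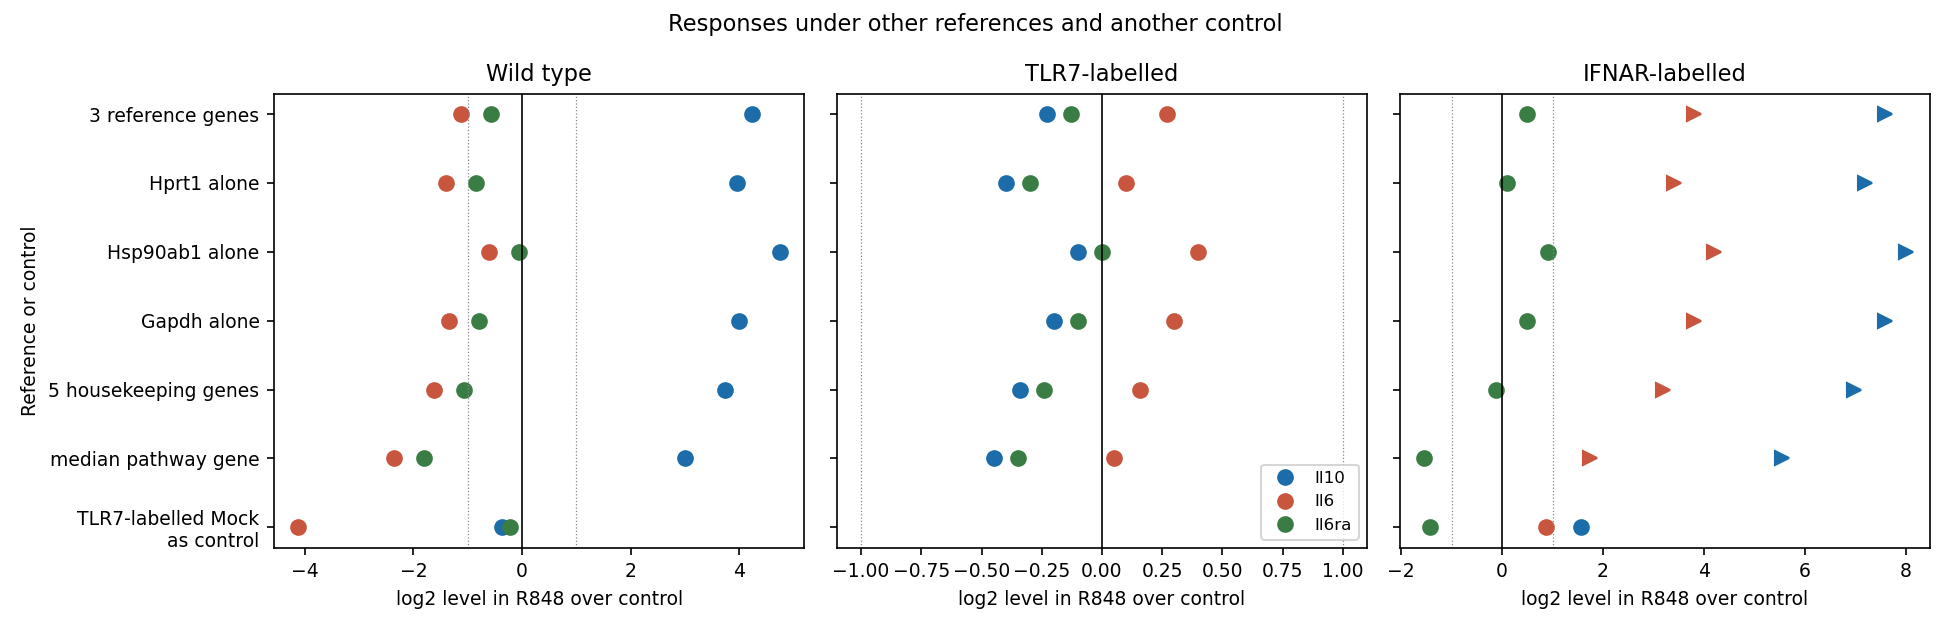
Log2 level in R848 over control (horizontal axes, with a scale of their own per panel) for the 3 members under 6 references, and with TLR7-labelled PBS as control in the lowest line of the outer panels; triangles are lower bounds and dotted lines 2-fold. In wild type *Il10* lies between 3.00 and 4.75 except with the TLR7-labelled PBS column, where it is -0.37.

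The other cytokines and chemokines on the plate give the setting of the 2 ligands. List counts here and below are to be read against the plate, of which 38.1% was at least 2-fold higher and 13.1% lower in wild type, 4.76% and 3.57% in TLR7-labelled spleen and 53.6% and 2.38% in IFNAR-labelled spleen. A list median over known directions leaves out open genes, while the plate median keeps them, so they cover unlike sets. Of 14 ligands, the members included, 2 were at least 2-fold higher in wild type, 5 lower and 2 open because of the cap, with a median log2 value of -0.69 (-0.19 over those of known direction) against 0.41 over the plate. *Il1a* (2.43-fold) was the other higher ligand. With *Hsp90ab1* alone as reference the 5 lower ligands were 1. In the TLR7-labelled pair none of those with a known direction was higher, 1, *Ccl2* in the first wells, was lower and 2 were open, with a median of -0.23 against 0.07. In the IFNAR-labelled pair 8 were higher, none lower and 3 open, with a median of 1.15 (1.90 over those of known direction) against 1.25. Without the first wells this last count was 7 of 13, and after centring on the median pathway gene 5 ligands were higher and 3 lower.

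Of 9 cytokines and chemokines that interleukin 10 is known to hold down in macrophages, *Il6* among them, 1 was higher, 3 were lower and 1 was open in wild type. The lower ones were *Il6*, *Il12a* (2.41-fold), a subunit of interleukin 12, and *Csf2* (2.58-fold), a myeloid growth factor. None of these 3 reached 2-fold with *Hsp90ab1* alone as reference. *Tnf*, the central inflammatory cytokine, had a log2 value of 0.43. IFNAR-labelled spleen, where *Il10* was higher too, had 6 of the 9 higher, none lower and 1 open, or 4 higher and 2 lower after centring, on a plate where 53.6% was higher. They included *Cxcl10* (45.3-fold), a T-cell chemokine, and *Tnf* (14.9-fold). The median of the list was -0.27 in wild type and 1.90 in the IFNAR-labelled pair, beside 0.41 and 1.25 over the plate. Without *Ccl2* of the first wells the IFNAR-labelled count was 5 of 8. No member of the list but *Ccl2* reached 2-fold in the TLR7-labelled pair.

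Genes that restrain TLR signalling were read beside *Il10*. In wild type 3 of 4 were at least 2-fold higher, *Il10*, *Tollip* (8.46-fold), an adaptor that dampens IRAK signalling, and *Tnfaip3* (4.23-fold), the deubiquitinating enzyme A20. *Nfkbia*, the inhibitor that holds NF-kB in the cytoplasm, was 2.97-fold lower. IFNAR-labelled spleen had *Tollip* (6.06-fold) and *Tnfaip3* (5.66-fold) higher with *Il10*, and *Nfkbia* at a log2 value of 0.80, and after centring 1 of the 4 was higher and 1 lower. None of the 4 reached 2-fold in the TLR7-labelled pair, where *Tollip* and *Tnfaip3* had log2 values of 0.87 each and 2 of the 4 passed 2-fold with *Hsp90ab1* alone. The list's medians were 2.58, 0.32 and 2.55 in wild type, TLR7-labelled and IFNAR-labelled spleen, against 0.41, 0.07 and 1.25 over the plate.

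Transcription factors known to act at the *Il6* or *Il10* gene had 3 of 9 members at least 2-fold higher and 1 lower in wild type. The higher ones were *Jun* (5.58-fold), a subunit of AP-1, *Nfkb1* (5.03-fold), which encodes the p50 subunit of NF-kB, and *Irf1* (3.81-fold), an interferon-response factor. *Cebpb*, encoding C/EBP beta, was 2.58-fold lower, and under 2-fold with *Hsp90ab1* alone. After centring 2 of the 9 were higher and 4 lower in wild type. *Rela*, *Rel* and *Nfkb2*, the other NF-kB subunits on the list, had log2 values of 0.38, 0.53 and -0.47. In the IFNAR-labelled pair 6 of 9 were higher and none lower, with *Jun* at 17.1-fold, *Nfkb1* at 13-fold, *Fos* at 4.92-fold and *Rela* at 4.59-fold, while *Cebpb* had a log2 value of 0.20. After centring these counts were 2 and 3. None reached 2-fold in the TLR7-labelled pair. The medians were 0.38, 0.27 and 1.90 in wild type, TLR7-labelled and IFNAR-labelled spleen, against 0.41, 0.07 and 1.25 over the plate.

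Kinases upstream of these factors had 4 of 11 members higher in wild type, 1 in TLR7-labelled spleen and 6 in IFNAR-labelled spleen, with none lower and 1 open in each. The shares higher in wild type and IFNAR-labelled spleen are close to those of the plate, 38.1% and 53.6%. After centring 1 was higher and 5 lower in wild type, and none higher and 4 lower in IFNAR-labelled spleen. *Map2k3*, which activates p38, was higher in all 3 pairs, at 3.10-fold, 2.58-fold and 4.59-fold. Of the 3 cytokine receptors on the plate, *Tnfrsf1a*, the TNF receptor, was 3.10-fold higher in wild type and 8-fold higher in the IFNAR-labelled pair. *Il1r1*, the interleukin 1 receptor, had a log2 value of 0.68 in wild type and was 4.29-fold higher in the IFNAR-labelled pair. *Il6ra* passed 2-fold in no pair, except in wild type with 5 housekeeping genes or the median pathway gene as reference (log2 -1.07 and -1.80) and in the IFNAR-labelled pair with the latter (-1.55). The kinases had medians of 0.18 (0.58 over those of known direction), 0.27 and 1.70 in wild type, TLR7-labelled and IFNAR-labelled spleen, and the receptors 0.68, 0.37 and 2.10, where the plate had 0.41, 0.07 and 1.25.

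Markers of the cells that make or bind these cytokines moved between columns too, and their part in the members' values was not tested. The summed level of 7 myeloid markers, in units of the reference genes, was 0.179 after PBS and 0.295 after R848 in wild type. TLR7-labelled spleen had 0.297 and 0.308, and IFNAR-labelled spleen 0.143 and 0.387. The 2 PBS columns low in *Il10* were also the 2 lowest in this sum, and in the sum of the 2 stromal markers as well. They were the 2 lowest for the plate too, with a median pathway delta-Ct of 7.47 in wild-type and 8.23 in IFNAR-labelled PBS. The other columns had medians of 6.18 to 6.45 cycles. Each sum adds levels on a linear scale, so the gene with the lowest delta-Ct weighs most. In the myeloid sum that was *Pglyrp1*, at 2.90, 2.20 and 3.13 cycles in wild-type, TLR7-labelled and IFNAR-labelled PBS. Like it, *Clec4e*, *Tlr2* and *Tlr4* had lower levels in wild-type and IFNAR-labelled PBS than in TLR7-labelled PBS. Other listed markers did not follow. *Ly96* had a higher level in wild-type than in TLR7-labelled PBS, at 5.70 against 6.30 cycles, and *Cd14* was at the cap in TLR7-labelled PBS. Of the stromal markers, *Ppara* was at the cap in wild-type PBS and in both IFNAR-labelled columns. That sum was mostly *Il1r1* in every column, a gene also counted here as a cytokine receptor. Without *Cd14* of the first wells the myeloid sum kept its order of PBS columns, at 0.164, 0.297 and 0.139 in wild-type, TLR7-labelled and IFNAR-labelled spleen. By count, 3 of the 7 were at least 2-fold higher with R848 in wild type. In TLR7-labelled spleen 1 was higher, and in IFNAR-labelled spleen 4 were higher and 1 lower. Without *Cd14* these counts were 2 higher in wild type, 0 in TLR7-labelled spleen and 4 higher with none lower in IFNAR-labelled spleen. *Csf3* was at the cap in 5 columns. The summed level of the 3 genes listed as B-cell markers ran from 0.123 in IFNAR-labelled PBS to 0.278 in wild-type PBS. Without *Btk*, TLR7-labelled PBS was highest at 0.234, beside 0.22 in wild-type PBS. The sum of 3 T and NK cell products ran from 0.00531 in wild-type R848 to 0.0208 in TLR7-labelled R848. Of 3 stromal markers 2 were on the plate, with sums of 0.002 after PBS in wild type, 0.00396 in TLR7-labelled and 0.00101 in IFNAR-labelled spleen, and up to 0.00515 after R848.

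The pathway genes with the most similar pattern were found by centring each gene's delta-Ct on its own mean and taking the root mean square difference over the 6 columns. For *Il10* these were *Jun* (1.16 cycles), *Nfkb1* (1.38) and *Myd88* (1.40), the common TLR adaptor, where the median gene stood at 2.26 cycles. *Jun* had delta-Ct values of 6.75 and 4.27 in wild type after PBS and R848, 3.5 and 3.03 in the TLR7-labelled columns and 7.63 and 3.53 in the IFNAR-labelled columns. Like *Il10*, it was low in wild-type and IFNAR-labelled PBS and high elsewhere. So was the median pathway gene, at 7.47 and 8.23 cycles in those 2 columns and 6.18 to 6.45 in the others. How far the likeness goes beyond that shared order of columns was not tested. Pearson's r with *Il10* was 0.96 for *Jun* and 0.97 for *Nfkb1* and *Myd88*, over 6 columns that share reference genes and, in pairs, a strain.

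For *Il6* the closest were *Clec4e* (0.79 cycles), a lectin receptor of myeloid cells, *Tlr2* (1.02), a receptor for bacterial lipopeptides, and *Il1a* (1.03), against 1.66 for the median gene. *Clec4e* had delta-Ct values of 9.15 and 7.67 in wild type after PBS and R848, 5.20 and 5.13 in the TLR7-labelled columns and 8.23 and 4.63 in the IFNAR-labelled columns. In wild type, where *Il6* was lower with R848, *Clec4e* was 2.79-fold and *Il1a* 2.43-fold higher and *Tlr2* had a log2 value of 0.43. For *Il6ra* the closest were *Ly86* (0.43), which encodes MD-1, partner of a TLR-like receptor of B cells, *Nfkbil1* (0.60) and *Ikbkb* (0.63), against 1.09 for the median gene. *Ly86* had delta-Ct values of 2.45 and 2.92 in wild type after PBS and R848, 3.00 and 3.03 in the TLR7-labelled columns and 3.93 and 3.33 in the IFNAR-labelled columns, so it too was lowest in IFNAR-labelled spleen. The members were less like each other, at 2.12 cycles for *Il10* and *Il6*, 2.70 for *Il10* and *Il6ra* and 2.15 for *Il6* and *Il6ra*.

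**Figure D5:**
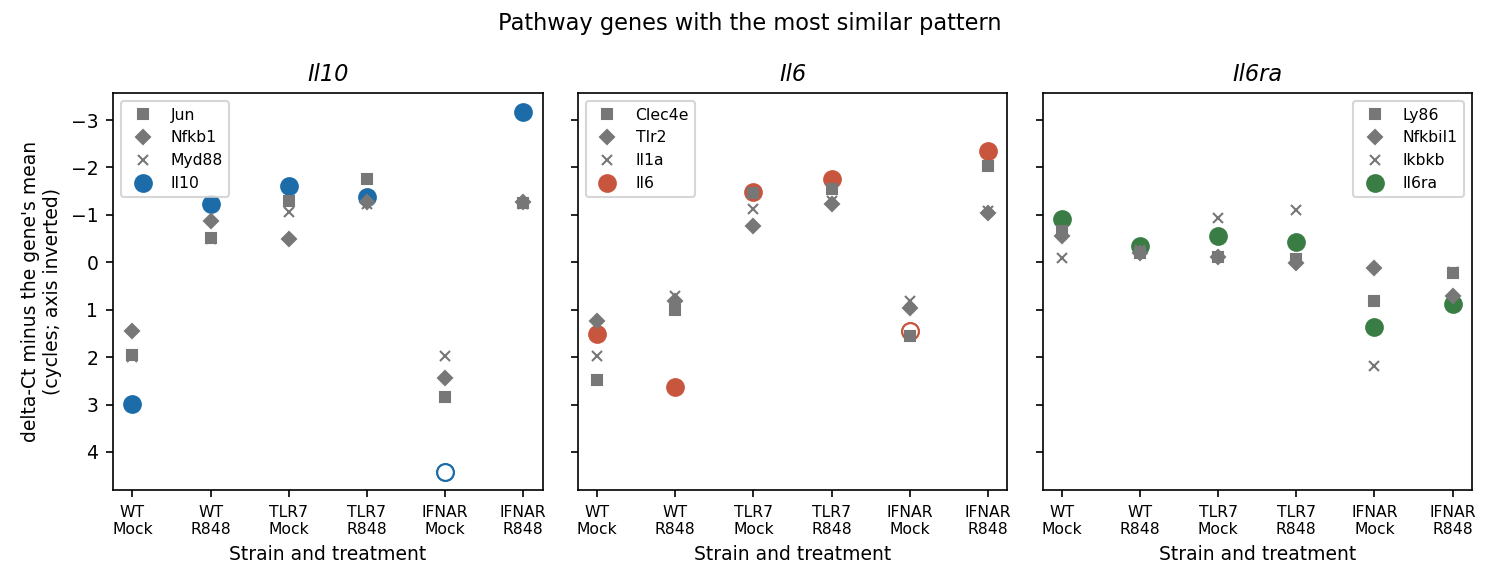
Delta-Ct minus the gene's own mean over the 6 columns (cycles, axis inverted) for each member (coloured circles, open at the cap) and its 3 most similar pathway genes (grey symbols). *Il10* swings further than its neighbours in both IFNAR-labelled columns, while the centred values of *Il6ra* and *Ly86* have a root mean square difference of 0.43 cycles.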

How the data were processed

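Spleen RNA was read on an RT² Profiler plate, and the 8 samples were grouped by their titles. Per the file headers and the labels, the authors deposited 1 table per strain, with delta-Ct in cycles (a log2 scale) and a fold, which is a ratio of both treatments. Ct values above 35 or blank had been set to 35 and values normalised to 3 reference genes, per the labels. The authors' deposited folds and those recomputed here differed by at most 0.02 cycles or 0.005 in fold for 89 of 89 genes per table. Readings moved in steps of 0.1 cycles in the deficient strains and 0.05 in the wild-type means. The tables hold 6 further columns, which give the same group values on a linear scale and were not used.

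Caps, reference Ct, responses, bounds, within-column ratios, list counts and likeness were computed in Python 3.11.15 with pandas 2.3.3 and numpy 2.4.6. The calling of directions and bounds was tested on simulated single plates. These held no means of 2 experiments, so the case of 1 capped wild-type experiment was not covered. No source used here gives the PCR efficiency. A test planned for separate wild-type experiments was not run, since the tables used here give their mean. The members and lists were chosen with earlier results of these data known. Named genes were the members, the reference genes, the 3 genes most like each member and the inhibitor and transcription factor lists. Members of other lists were named at 2-fold or more. *Tlr7*, *Csf3*, *Casp8*, *Cd86*, *Ly96*, *Gusb* and *Actb* were named after their values were seen. So was *Tnf* in wild type, as an example of a list at under 2-fold. Alternatives were 5 other references, thresholds of 1.5-fold and 3-fold, leaving out genes at the cap, TLR7-labelled Mock as control and another measure of likeness. Leaving out the first 4 wells was added after seeing the data.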

Additional observations from a re-analysis of the deposited data

Results flagged for a closer look

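In 6 cases a member's log2 response to R848 had opposite signs in 2 strains, and in 5 of them at least 1 of the responses was under 2-fold. Each is given as the difference of log2 responses and was not tested, since each strain has 1 value and the wild-type value is the authors' mean of 2 experiments, whose separate values were not used here. For *Il10* the TLR7-labelled pair differed from wild type by -4.46, and the IFNAR-labelled pair from the TLR7-labelled pair by at least 7.83. For *Il6* the TLR7-labelled pair differed from wild type by 1.39 and the IFNAR-labelled pair by at least 4.92, both on a wild-type PBS value 0.65 cycles from the cap. For *Il6ra* the IFNAR-labelled pair differed from wild type by 1.07 and from the TLR7-labelled pair by 0.63, and its own log2 value of 0.50 turned below 0 with 5 housekeeping genes.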

How the results depend on the processing

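Of 58 responses of the members under other settings, 41 kept their direction and side of 2-fold and moved by less than 1.5-fold. So did 33 of 45 differences of responses. The 58 include the setting that leaves out genes at the cap, which repeats the main value of uncapped responses and so could not move. The causes of the changes in the rest were not tested. With TLR7-labelled Mock as control, log2 responses were -0.37 and -4.12 for *Il10* and *Il6* in wild type, and 1.57, 0.87 and -1.43 for *Il10*, *Il6* and *Il6ra* in IFNAR-labelled spleen. Centring on the median pathway gene shifted all log2 responses by -1.23 (wild type), -0.22 (TLR7-labelled) and -2.05 (IFNAR-labelled). It gave *Il10* 3.00, *Il6* -2.35 and *Il6ra* -1.80 in wild type, and at least 5.55, at least 1.75 and -1.55 in IFNAR-labelled spleen. All 5 housekeeping genes gave *Il6ra* -1.07 in wild type, and at least 6.98, at least 3.18 and -0.12 for the members in IFNAR-labelled spleen. *Hsp90ab1* alone gave *Il6* -0.60 in wild type and *Il6ra* 0.00 in the TLR7-labelled pair.

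Centring moved the differences of responses to -3.45, 2.40 and 1.45 (TLR7 minus wild type), at least 2.55, at least 4.10 and 0.25 (IFNAR minus wild type) and at least 6.00, at least 1.70 and -1.20 (IFNAR minus TLR7) for *Il10*, *Il6* and *Il6ra*. *Il6ra*, IFNAR minus wild type, was 0.95 with *Hprt1* alone, *Hsp90ab1* alone or 5 housekeeping genes. Over the plate, genes at least 2-fold higher and lower in wild type went from 32 and 11 to 39 and 5 with *Hsp90ab1* alone, 22 and 17 with 5 housekeeping genes, 15 and 32 after centring and 21 and 2 at 3-fold. In the IFNAR-labelled pair they went from 45 and 2 to 14 and 29 after centring, 36 and 5 with 5 housekeeping genes and 37 and 1 at 3-fold. In the TLR7-labelled pair they went from 4 and 3 to 7 and 3 with *Hsp90ab1* alone, 10 and 6 at 1.5-fold, 1 and 1 at 3-fold and 3 and 1 without the first 4 wells. Of 324 recounts of gene lists, 51 moved by over 1.5 times; with centring the kinases went from 4 higher and 0 lower to 1 and 5 in wild type and from 6 and 0 to 0 and 4 in the IFNAR-labelled pair. With Pearson's r as the measure, 1 of the 3 genes most like *Il10* and 2 of those most like *Il6* were shared with the main choice. Leaving out genes at the cap removes *Il10* and *Il6* from the IFNAR-labelled pair and changes no other member value. No paired analysis was possible because the wild-type table used here gives 1 column per treatment, the mean of both experiments, and leaving out an experiment was not run for the same reason.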
